A study of Saccharomyces cerevisiae with 68 samples.

Results

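Ribosome biogenesis factors are the proteins that cut, modify and fold ribosomal RNA and join it to ribosomal proteins without staying in the finished ribosome. They were taken here by gene symbol: UTP, NOP, RRP, NSA, NOG, NUG or ENP followed by a number, plus DBP3, CIC1 and RIX7. The rule found 63 of the 5449 named S. cerevisiae genes on the arrays, each read by 1 probe set. It uses symbols and no measured value, but was chosen with earlier results of these data known. RNA labelled for 6 min with 5 mM 4-thiouracil (nascent RNA) and total RNA were measured on Affymetrix yeast arrays in strains that lack subunits of SAGA, a coactivator of RNA polymerase II. The deletion strains were spt20, spt7, ubp8 and gcn5, the double deletion ubp8_gcn5, spt3 and spt8, and the double deletion spt3_gcn5. The wild type (WT) was FY406, from which all of them derive. Every culture was grown in rich medium (YPD) at 30 °C and taken at an OD600 of 0.8, and wild-type S. pombe cells were added as a spike-in ahead of RNA extraction, with 3 S. cerevisiae cells per S. pombe cell. Per the labels a deletion strain was sampled as 2 independent replicates, so the 4 arrays of 5 strains may be repeats of 2 cultures, and p-values then measure the spread between arrays, which may be technical. Nascent RNA had 4 arrays each of spt20, ubp8, gcn5 and ubp8_gcn5, 2 each of spt3, spt8 and spt3_gcn5, and 6 of WT. Total RNA had 2 arrays of spt20, 4 each of spt7, ubp8, gcn5 and ubp8_gcn5, 2 each of spt3, spt8 and spt3_gcn5, and 6 of WT.

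Ribosome assembly starts in the nucleolus, where RNA polymerase I makes a long precursor of the ribosomal RNAs. The small subunit processome binds it as it is made: the UTP-A complex lands first, UTP-B follows, and the U3 particle, a box C/D snoRNP, base-pairs with the precursor. Pre-60S particles then mature separately with helicases, GTPases and the AAA-ATPase Rix7, while the exosome trims RNA ends. In yeast the genes for these factors are known for changing together with growth, under the activator Sfp1 and the repressors Dot6, Tod6 and Stb3. Within SAGA, Spt20 and Spt7 hold the complex together, Gcn5 acetylates histone H3, Ubp8 removes ubiquitin from histone H2B, and Spt3 and Spt8 contact the TATA-binding protein.

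Signals are given as relative log2 signal, the log2 intensity minus the array's median over all S. cerevisiae genes, and a change is strain minus WT ± the standard error of a limma fit over 4087 tested genes, which include all 63 factors. A gene is called higher or lower at an adjusted p under 0.05, and every comparison with WT shares the same 6 WT arrays. The deleted genes lay below all WT arrays in 19 of 19 checks. The S. pombe profiles split the arrays into a first set of WT replicates 3 to 6 and most strains, and a second set of WT 7 and 8 and both spt3_gcn5 arrays in each fraction (mean rho between the sets 0.669 for nascent RNA and 0.851 for total RNA). The labels name no batch, so values with the array set as a block, called blocked, stand beside the unblocked ones. The nascent arrays of ubp8_gcn5 hold values that appear divided by 1 of 2 constants 0.433 apart in log2, and the larger was found for 59 of the 63 factors (93.7%) against 47.8% of all genes. Values with these constants undone are therefore given too, except where signals are scaled to S. pombe. There the ubp8_gcn5 nascent values are as deposited. Its nascent shift of -1.73 below, and the S. pombe-scaled median of its factors, therefore include this division. Their size cannot be compared with that of other strains. Scaled to S. pombe, the median of all genes shifted by -1.04 in spt20, -0.28 in ubp8, -0.47 in gcn5, -1.73 in ubp8_gcn5, -1.15 in spt3, 0.07 in spt8 and -2.73 in spt3_gcn5 in the nascent fraction. In total RNA the shifts were -0.55 in spt20, -0.50 in spt7, 0.33 in ubp8, 0.24 in gcn5, -0.28 in ubp8_gcn5, -0.01 in spt3, 0.62 in spt8 and -1.64 in spt3_gcn5, and all changes below are relative to such shifts. With S. pombe scaling the median of the factors was lower in each strain and fraction except 0.04 in nascent and 0.49 in total RNA of spt8 and 0.04 in total RNA of ubp8, where the relative medians lay below 0. As the RNA comes from whole cultures, fewer cells of a kind and less RNA per cell cannot be told apart.

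The array medians show the level of the factors as a group, and as a description carry no test. In nascent RNA the median of the 63 relative log2 signals was 0.77 ± 0.08 in spt20, 1.01 ± 0.08 in ubp8, 0.92 ± 0.09 in gcn5 and 0.71 ± 0.09 in ubp8_gcn5 (0.97 ± 0.08 with the constants undone), against 1.33 ± 0.14 in WT (SD, n = 4 against 6). All arrays of these 4 strains as deposited lay below the lowest WT array, at 1.16. The medians were 1.17 ± 0.02 in spt3, 1.21 ± 0.04 in spt8 and 1.26 ± 0.06 in spt3_gcn5 (SD, n = 2), inside the WT range or at its lower edge. In total RNA they were 0.87 ± 0.03 in spt20 (n = 2), 1.10 ± 0.05 in spt7, 1.09 ± 0.11 in ubp8, 0.97 ± 0.14 in gcn5 and 1.01 ± 0.08 in ubp8_gcn5 (n = 4), against 1.39 ± 0.21 in WT (SD, n = 6). The other total medians were 1.22 ± 0.06 in spt3, 1.35 ± 0.02 in spt8 and 1.20 ± 0.03 in spt3_gcn5 (SD, n = 2).

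**Figure D1:**
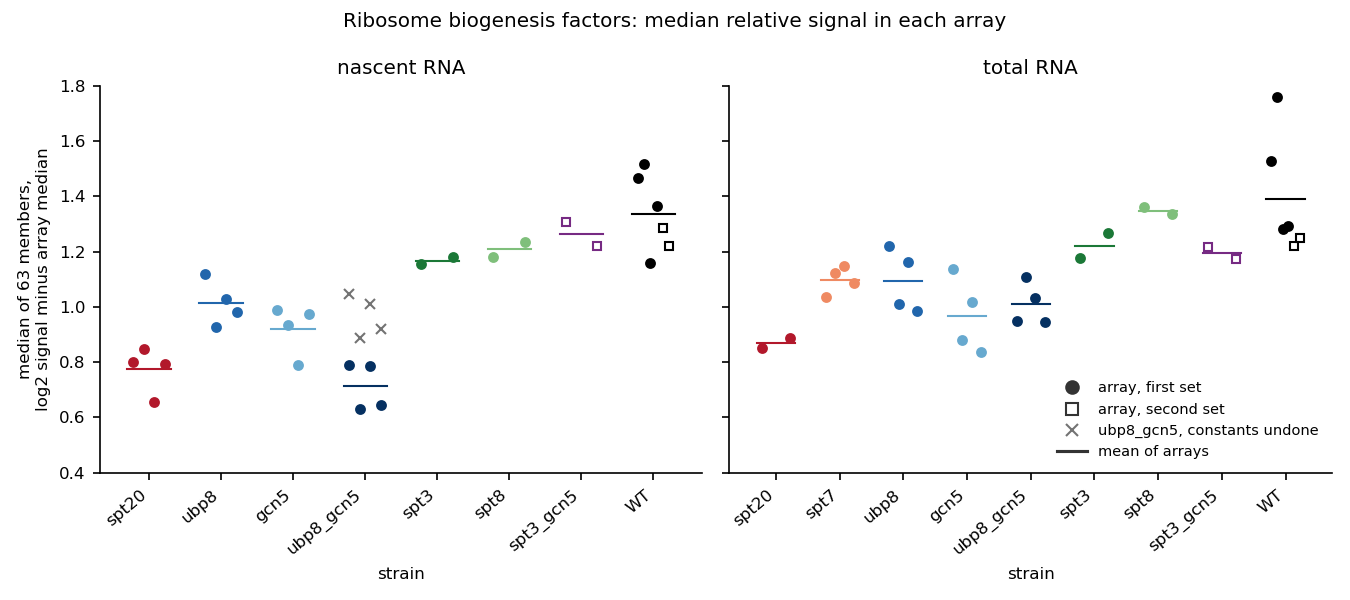
Median relative log2 signal of the 63 ribosome biogenesis factors in each array (vertical axis, log2 units), by strain, for nascent and total RNA, with WT at the right. Filled circles are arrays of the first array set, open squares arrays of the second, crosses the ubp8_gcn5 nascent arrays with the constants undone, and lines group means. All arrays of spt20, ubp8, gcn5 and ubp8_gcn5 lie below the lowest WT array of 1.16 in nascent RNA.

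In spt20 most of the factors were lower than in WT. In nascent RNA 45 of 63 fell (71.4%), where 25% of all tested genes fell, and 1 rose, where 20.5% rose, with a median change of -0.49. Blocked, 50 fell, against 26.4% of all genes, and with consecutive replicates averaged 28 fell, against 12.1%. For 30 factors (47.6%) all 4 spt20 arrays lay below all 6 WT arrays, as they did for 13.7% of all tested genes. Of 1305 S. pombe genes, which come from the added wild-type cells, 0% passed with and without the block. In total RNA 41 fell (65.1%), where 28.1% of all genes fell, and 1 rose, where 17.2% rose. Blocked, 52 fell, against 37.6% of all genes, and S. pombe genes passed at 1.99% and, blocked, 8.58%.

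The GTPase gene NOG1, needed for pre-60S maturation, had the largest fall. Its nascent relative log2 signal was -0.01, 0.15, -0.38 and -0.12 in spt20, against a lowest, median and highest value of 1.04, 1.43 and 2.04 in WT. No spt20 array came near a WT array, and the change was -1.63 ± 0.17 (limma adjusted p = 4.74e-08, blocked -1.39). UTP5, of the UTP-A complex, was at 0.36, 0.56, 0.25 and 0.26 in spt20, against 1.00, 1.43 and 1.98 in WT, a change of -1.14 ± 0.14 (adjusted p = 4.76e-07, blocked -0.92). CIC1, a pre-60S assembly factor, was at 0.89, 0.64, 0.52 and 1.13 in spt20, against 1.76, 1.93 and 2.10 in WT (-1.13 ± 0.10, adjusted p = 8.64e-09). For both genes the groups were apart. UTP18, of UTP-B, fell by 1.01 ± 0.20 (adjusted p = 0.000249, blocked -0.66), with spt20 arrays at 0.12 to 0.49 and WT arrays spread over 0.61 to 2.17. In total RNA NOG1 was at -0.29 and -0.25 in spt20, against 1.11, 1.48 and 1.69 in WT, a change of -1.73 ± 0.16 (adjusted p = 4.81e-09). There UTP5 changed by -1.04 ± 0.10, CIC1 by -0.99 ± 0.11 and DBP3, a DEAD-box helicase gene of the large subunit, by -0.98 ± 0.15 (adjusted p = 6.66e-09, 7.45e-08 and 1.14e-05).

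The factor that rose in spt20 was RIX7, the gene of the AAA-ATPase that remodels pre-60S particles. Its nascent signal was 1.54, 1.82, 1.55 and 1.73 in spt20, against 0.28, 0.51 and 0.69 in WT, a change of 1.16 ± 0.11 (adjusted p = 2.25e-08). In total RNA it was 1.66 and 1.75 in spt20, against 0.12, 0.50 and 0.89 in WT (1.20 ± 0.18, adjusted p = 9.53e-06). All spt20 arrays lay above all WT arrays. RIX7 is the only one of the 63 on the left arm of chromosome XII, and the other genes of that arm were high as well. Their median change was 1.05 in nascent RNA, with 38 of 43 genes higher, and 1.10 in total RNA, with 33 of 42 higher, whereas the medians of the other 31 arms lay between -0.12 and 0.26 and between -0.22 and 0.27. GRC3, which converges on RIX7, changed by 1.07 in nascent RNA and by 1.20 in total RNA. Of the 10 tested genes nearest to RIX7, 9 rose in each fraction. Centred on its arm's median and blocked, RIX7 changed by 0.18 in nascent RNA (adjusted p = 0.254) and 0.41 in total RNA (adjusted p = 0.0232). In spt7, which lacks the other scaffold subunit, total RIX7 was at 0.21, 0.42, 0.43 and 0.27, inside the WT range. The arm was singled out after its values were seen, and the cause of its shift was not tested. Without RIX7, 0 of 62 factors rose in spt20.

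In spt7, where only total RNA was analysed, 35 of 63 factors fell (55.6%), where 28.6% of all genes fell, and 0 rose (44 fell when blocked, against 38.6%). For spt7, ubp8 and gcn5 the share of all genes that rose is not given, so their counts of 0 higher factors have no background beside them. With consecutive replicates averaged 19 fell in spt7, against 16%. The median change was -0.33, and S. pombe genes passed at 9.2% and, blocked, 44.5%. UTP5 was at 0.49, 0.61, 0.56 and 0.61 in spt7, against 1.19, 1.49 and 1.78 in WT, a change of -0.91 ± 0.08 (adjusted p = 8.6e-10). RRP4, an RNA-binding subunit of the exosome cap, was at 0.17, 0.15, 0.29 and 0.10 in spt7, against 0.88, 0.92 and 1.33 in WT (-0.82 ± 0.08, adjusted p = 7.75e-09). Both were below every WT array. NOG1 changed by -0.79 ± 0.13 (adjusted p = 1.33e-05) and RRP9, a protein of the U3 particle, by -0.78 ± 0.17 (adjusted p = 0.00066, blocked -0.51).

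Set against each other in total RNA, spt20 and spt7 differed in 6 of 63 factors (9.52%), where 8.91% of all genes differed. NOG1 was lower in spt20 by 0.93, UTP22 of the UTP-C complex by 0.44 and ENP1 of the pre-40S particle by 0.44, and RRP3, a small subunit helicase gene, also passed. RIX7 was higher in spt20 by 1.37 and RRP4 by 0.46. Blocked, 18 differed, against 31.3% of all genes, and scaled to S. pombe 2 did, against 1.47%. The S. pombe genes themselves passed at 0% and, blocked, 11.3%.

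**Figure D2:**
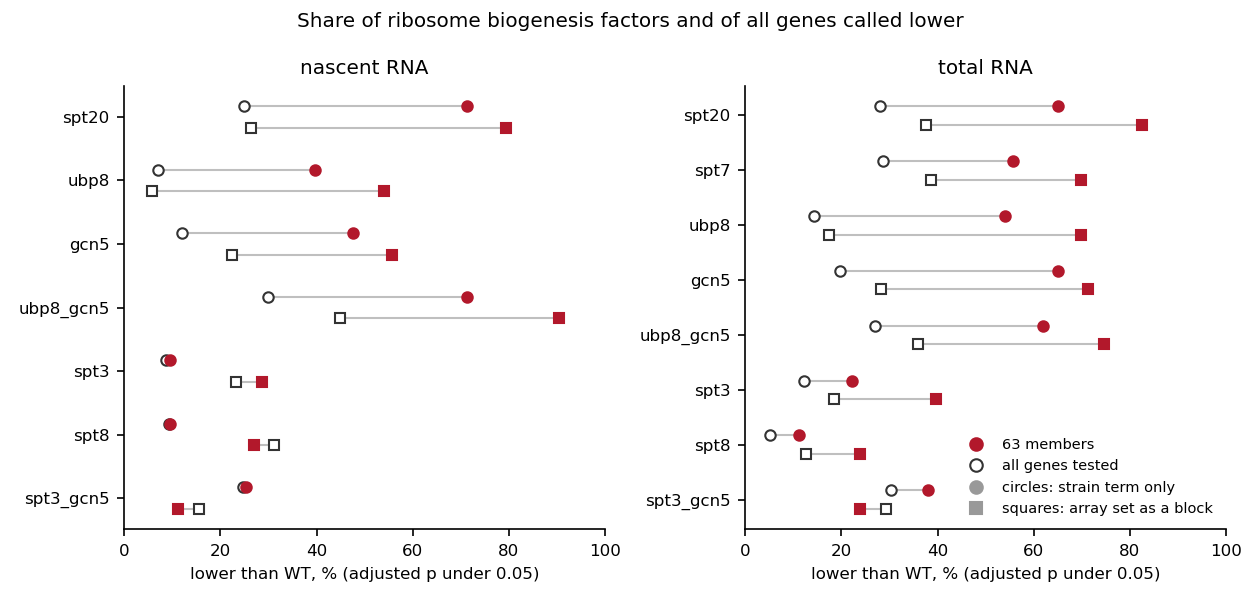
Percent of genes lower than WT in each strain (horizontal axis, percent), for the 63 ribosome biogenesis factors (red) and all tested genes (open), nascent and total RNA. Circles are the fit with the strain alone and squares the fit with the array set as a block. In spt20 nascent RNA 71.4% of the factors are lower, against 25% of all genes, and in spt3 nascent RNA 9.52% against 8.71%.

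Without the deubiquitinase, in ubp8, 25 factors fell in nascent RNA (39.7%), where 7.1% of all genes fell (34 when blocked, against 5.68%), and 0 rose. The count was 14 without ubp8 replicate 2 and 9 without replicate 4, and 0 when consecutive replicates were averaged, against 0.0245% of all genes. In total RNA 34 fell (54%), where 14.3% of all genes fell (44 when blocked, against 17.5%), 22 without replicate 2 and 5 with replicates averaged, against 0.979%. Scaled to S. pombe, 1 factor was lower in each fraction, against 0.147% of all genes in nascent and 0.245% in total RNA. S. pombe genes passed at 0.383% in nascent and 2.3% in total RNA, and blocked at 2.07 and 15.6%. NOG1 was at 0.81, 0.59, 0.76 and 0.31 in nascent RNA of ubp8, against 1.04, 1.43 and 2.04 in WT, a change of -0.92 ± 0.17 (adjusted p = 0.00112, blocked -0.68). UTP7, a WD-repeat protein gene of the small subunit processome, was at 0.54, 0.31, 0.39 and 0.29 in ubp8, against 0.76, 1.05 and 1.46 in WT (-0.73 ± 0.14, adjusted p = 0.00178, blocked -0.56). For both, every ubp8 array was below every WT array. RRP9 changed by -0.72 ± 0.17 (adjusted p = 0.00903, blocked -0.42) and UTP15, of UTP-A, by -0.68 ± 0.16 (adjusted p = 0.0067, blocked -0.39). In total RNA NOG1 (-0.77 ± 0.13), NOP4, an RNA-recognition protein of the large subunit (-0.71 ± 0.12), UTP7 (-0.64 ± 0.12) and UTP15 (-0.58 ± 0.11) led the falls (adjusted p = 0.000115, 0.000122, 0.000675 and 0.000528).

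Without the acetyltransferase, in gcn5, 30 factors fell in nascent RNA (47.6%), where 12% of all genes fell (35 when blocked, against 22.4%), and 0 rose. In total RNA 41 fell (65.1%), where 19.7% of all genes fell (45 when blocked, against 28.2%), and 0 rose. On the S. pombe scale 49 were lower in nascent RNA, against 27.2% of all genes, but 4 in total RNA, against 2.67%. Of the S. pombe genes, 1.46% passed in nascent and 3.07% in total RNA, and when blocked 37.3 and 24.5%. With consecutive replicates averaged 3 fell in nascent RNA, against 2.15% of all genes, and 20 in total RNA, against 7.81%. UTP30, a small subunit factor related to ribosomal protein L1, had the largest fall. Its nascent signal was -0.15, -0.24, -0.27 and -0.27 in gcn5, against 0.33, 0.96 and 1.32 in WT, a change of -1.10 ± 0.13 (adjusted p = 1.6e-06, blocked -1.03). In total RNA it was 0.02, -0.11, -0.14 and -0.25 in gcn5, against 0.48, 0.74 and 1.45 in WT (-0.93 ± 0.12, adjusted p = 1.88e-06). The groups were apart in both fractions, and in ubp8, with nascent values of 0.80, 0.65, 0.56 and 0.71, UTP30 stayed inside the WT range. NOG1 (-0.80 ± 0.17), UTP7 (-0.77 ± 0.14) and UTP5 (-0.71 ± 0.14) followed in nascent RNA (adjusted p = 0.00137, 0.000357 and 0.000577). In total RNA NOP4 changed by -0.88 ± 0.12, UTP10 of UTP-A by -0.72 ± 0.13 and NOG1 by -0.72 ± 0.13 (adjusted p = 2.31e-06, 0.000141 and 8.76e-05).

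Set against each other, ubp8 and gcn5 differed in 2 of 63 factors in nascent RNA (3.17%), where 8.51% of all genes differed, and in 2 of 63 in total RNA, where 14.3% did. All 4 differences were higher values in ubp8. UTP30 was higher by 0.91 in nascent (adjusted p = 0.000132) and by 0.86 in total RNA (adjusted p = 5.17e-05). NOP9, a Pumilio-like RNA-binding protein gene, was higher by 0.34 in nascent RNA (adjusted p = 0.00671) and NOG2, a GTPase gene of pre-60S maturation, by 0.30 in total RNA (adjusted p = 0.0235). Blocked, 7 and 9 factors differed, against 23.1 and 35.4% of all genes, and scaled to S. pombe 1 differed in each fraction, against 3.03 and 2.5%. In both fractions 0% of the S. pombe genes passed, and blocked 1.53 and 0.153%.

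The double deletion ubp8_gcn5 had 45 factors lower in nascent RNA as deposited (71.4%), where 29.9% of all genes were lower (57 when blocked, against 44.9%). With the constants undone 28 were lower (44.4%), where 17.6% of all genes were, and 39 when also blocked, against 28.1%. The median change was -0.57 as deposited and -0.33 with the constants undone. With consecutive replicates averaged 29 were lower, against 13%. S. pombe genes passed at 0.153% and, blocked, 2.15%. DBP3 was at 0.79, 0.71, 0.95 and 0.85 in ubp8_gcn5 (1.05, 0.97, 1.22 and 1.13 undone), against 1.87, 2.12 and 2.24 in WT. The groups were apart either way, and the change was -1.26 ± 0.10 as deposited (adjusted p = 1.27e-09) and -0.99 undone (adjusted p = 8.66e-08). UTP7 changed by -1.19 ± 0.14 (-0.93 undone), NOG1 by -1.18 ± 0.17 (-0.92 undone) and UTP5 by -1.14 ± 0.14 (-0.87 undone), and all 3 passed with the constants undone (adjusted p = 2.76e-05, 0.000219 and 3.77e-05). In total RNA, taken as deposited, 39 factors were lower (61.9%), where 26.9% of all genes were (47 when blocked, against 36%). The falls were led by NOG1 (-0.94 ± 0.13), DBP3 (-0.92 ± 0.12), UTP30 (-0.87 ± 0.12) and UTP5 (-0.79 ± 0.08), with adjusted p of 1.52e-06, 9.67e-07, 2.97e-06 and 1.28e-08. NOP19, of the small subunit processome, was the 1 factor that was higher (0.49 ± 0.19, adjusted p = 0.0383), where 18.2% of all genes were higher, and it did not pass when blocked (0.13, adjusted p = 0.274). With consecutive replicates averaged 18 were lower in total RNA, against 13.1%, and S. pombe genes passed at 10.5% and, blocked, at 27.4%.

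Compared with the single deletions, the double deletion differed from gcn5 in 9 factors in nascent RNA, where 19.2% of all genes differed, and from ubp8 in 20, where 34.1% did. Blocked, the counts were 27 and 31, against 44.3 and 57.3%. With the constants undone both counts were 2, where 3.57 and 12.7% of all genes differed. DBP3 was lower in ubp8_gcn5 than in gcn5 by 0.79 as deposited and by 0.52 undone (adjusted p = 0.00771), and lower than in ubp8 by 0.89 and 0.63 (adjusted p = 0.00039 undone). In total RNA 4 factors differed from gcn5, where 13.2% of all genes did, and 6 from ubp8, where 22.7% did (8 from gcn5 when blocked, against 37.7%). With S. pombe scaling 62 were lower than in gcn5 and 62 lower than in ubp8 in nascent RNA, against 95.7 and 97.8% of all genes. These nascent counts include the division by the constants, which was not undone on that scale, so they do not show a fall beyond the single deletions. In total RNA 29 and 48 were lower on the S. pombe scale, against 50.4 and 65%. The relative signal of DBP3 was lower in total RNA too, by 0.48 against gcn5 and 0.64 against ubp8. UTP30, low in gcn5, was lower by 0.79 in total RNA of ubp8_gcn5 than of ubp8. NOP4 was higher in total RNA of ubp8_gcn5 than of gcn5 by 0.46 and RRP8, a 25S rRNA methyltransferase gene, by 0.37.

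Strains spt3 and spt8, each without a subunit that contacts the TATA-binding protein, had few factors past the threshold. In nascent RNA 6 of 63 were lower in each (9.52%), where 8.71% of all genes were lower in spt3 and 9.4% in spt8, so these shares lie near the background. Without either spt3 array the spt3 count was 1, and without either spt8 array the spt8 count was 0 (3 without WT replicate 3). Blocked, 18 were lower in spt3, against 23.2% of all genes, and 17 in spt8, against 31.1%, while S. pombe genes passed at 7.59 and 14.3% and, blocked, at 63 and 60.9%. Scaled to S. pombe, all 63 were lower in spt3, as were 90.2% of all genes, and 0 passed in spt8, as did 0.122% of all genes. DBP3 fell in both: it was at 1.38 and 1.41 in spt3 and at 1.43 and 1.39 in spt8, against 1.87, 2.12 and 2.24 in WT. The changes were -0.69 ± 0.13 (adjusted p = 0.000768) and -0.67 ± 0.13 (adjusted p = 0.0024). In spt3, NOP4 changed by -0.54 ± 0.17 (adjusted p = 0.0353), NOG1 by -0.64 ± 0.21 (adjusted p = 0.045) and UTP7 by -0.56 ± 0.18 (adjusted p = 0.0404). Blocked, NOG1 (-0.40, adjusted p = 0.0559) and UTP7 (-0.39, adjusted p = 0.0509) did not pass. In spt8, NOP1, the gene of the rRNA methyltransferase fibrillarin, was at 2.16 and 2.28, against 2.47, 3.01 and 3.33 in WT (-0.68 ± 0.20, adjusted p = 0.0255). RRP5, a factor of both subunits, changed by -0.55 ± 0.18 (adjusted p = 0.0426) and ENP2 of the small subunit by -0.45 ± 0.15 (adjusted p = 0.0424).

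In total RNA 14 factors were lower in spt3 (22.2%), where 12.2% of all genes were (25 when blocked, against 18.4%), a count of 4 and 5 without spt3 replicates 1 and 2. There S. pombe scaling left 5 lower, against 4.99% of all genes. NOP53, which docks the exosome on pre-60S particles, was at 0.19 and 0.30 in spt3, against 0.55, 1.07 and 1.69 in WT, a change of -0.79 ± 0.22 (adjusted p = 0.0106). NOG2 was at 1.07 and 0.98 in spt3, against 1.51, 1.66 and 1.82 in WT (-0.62 ± 0.10, adjusted p = 7.62e-05). For both genes the groups were apart. NOP4 changed by -0.67 ± 0.15 (adjusted p = 0.00158) and RRP8 by -0.62 ± 0.11 (adjusted p = 0.000132). In spt8, 7 factors were lower (11.1%), where 5.09% of all genes were (15 when blocked, against 12.6%), and 2 were higher, where 11.6% of all genes were. The 9 calls were 2 without either spt8 array. The direction turned with S. pombe scaling: 25 factors were higher and 0 lower (median 0.49), where 52.8% of all genes were higher. NOP4 (-0.59 ± 0.15), NOG2 (-0.55 ± 0.10), RRP4 (-0.49 ± 0.10) and NOP9 (-0.43 ± 0.12) were lower (adjusted p = 0.00697, 0.00066, 0.00183 and 0.0117). On that scale RRP4 and NOP9 turned to 0.06 and 0.12. NOP10, of the H/ACA snoRNPs that guide pseudouridylation, was at 4.18 and 4.16 in spt8, against 2.76, 3.65 and 4.05 in WT (0.74 ± 0.22, adjusted p = 0.022, blocked 0.40). NOP1 was at 3.70 and 3.63 in spt8, against 2.92, 3.25 and 3.60 in WT (0.40 ± 0.13, adjusted p = 0.0332, blocked 0.26). For both, the WT arrays of the first set lay closest. S. pombe genes passed in total RNA at 1.46% in spt3 and 6.67% in spt8, and blocked at 20.1 and 26.2%.

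Directly compared, spt3 and spt8 differed in 0 of 63 factors in nascent RNA (limma, 1 at an unadjusted p under 0.05, 0 when blocked), where 0.979% of all genes differed (3.06% when blocked). The differences ran from -0.32 to 0.35 with a median standard error of 0.21. In total RNA RRP8 alone differed, lower by 0.58 in spt3 (adjusted p = 0.00612), where 6.34% of all genes differed, and 5 differed when blocked, against 22.2%. All 63 factors were, with S. pombe scaling, lower in spt3 than in spt8 in nascent RNA (median -1.34), as were 92.4% of all genes, and 35 in total RNA (median -0.74), as were 41.1%. S. pombe genes passed at 0% in both fractions and, blocked, at 0 and 1.53%.

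**Figure D3:**
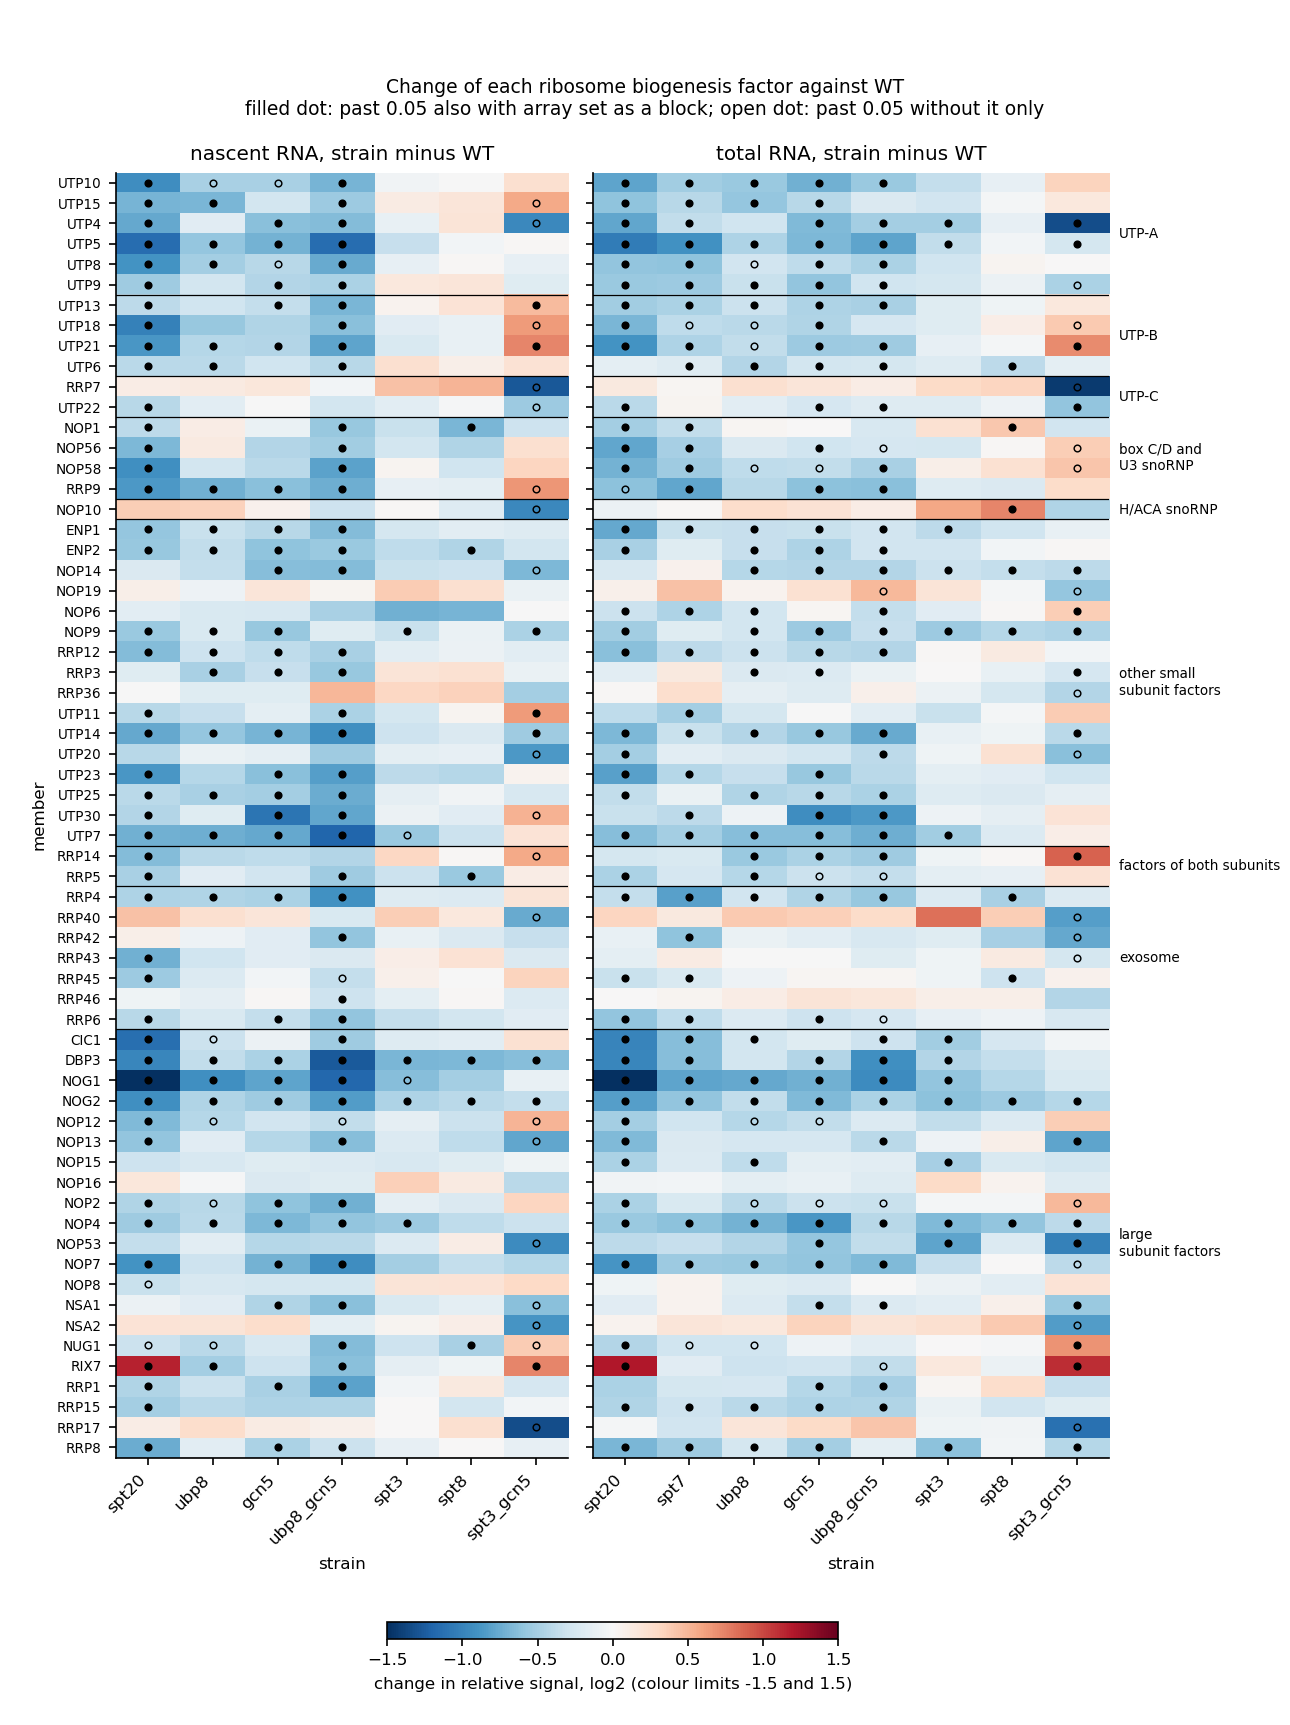
Change in relative log2 signal (strain minus WT, colour scale in log2 units) of each of the 63 factors, grouped by role, in every strain and both fractions. Filled dots mark changes past an adjusted p of 0.05 with and without the array set as a block, open dots changes past it without the block only. NOG2 is lower in all 15 comparisons, and RIX7 is higher in spt20 and spt3_gcn5.

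The double deletion spt3_gcn5 had factors changed both ways. In nascent RNA 16 of 63 were lower (25.4%), where 24.7% of all genes were, and 11 were higher, where 20.9% were. Blocked, which sets these arrays against WT 7 and 8, 7 were lower, against 15.5% of all genes, and 5 higher, against 20.1%. In total RNA 24 were lower, where 30.4% of all genes were, and 9 higher, where 28.6% were. Blocked, 15 were lower, against 29.3%, and 10 higher, against 27.5%. Scaled to S. pombe, all 63 were lower in both fractions, as were 99.4 and 94.5% of all genes. Without spt3_gcn5 replicate 1 or 2 the 27 nascent calls were 10 and the 33 total calls were 17 and 20. S. pombe genes passed at 50.5% in nascent and 57.9% in total RNA, and blocked at 2.76 and 0.766%. RRP17, an exonuclease gene, shows what the block does. Its nascent signal was -0.97 and -1.25 in spt3_gcn5, against -0.82 and -0.67 in WT 7 and 8 and 0.12 to 1.28 in WT 3 to 6. The unblocked change of -1.33 ± 0.35 (adjusted p = 0.00391) was -0.36 when blocked (adjusted p = 0.273). The falls of NOP10 (-0.96, blocked -0.17) and NOP53 (-0.95, blocked -0.11) in nascent RNA likewise did not pass when blocked (adjusted p = 0.591 and 0.785), nor did that of UTP4 of UTP-A (-0.96, blocked -0.39, adjusted p = 0.0522).

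Falls that passed with the block were those of UTP5, UTP8, DBP3, NOG1, NOG2, NOP9 and UTP14 in nascent RNA. In total RNA, UTP4 was at -0.86 and -0.80 in spt3_gcn5, against 0.18 and 0.09 in WT 7 and 8, and changed by -1.33 ± 0.18 (adjusted p = 1.52e-06, blocked -0.97). NOP53 (-1.01 ± 0.22, blocked -0.54) and NOP13 (-0.79 ± 0.16, blocked -0.50) passed with the block too (adjusted p = 0.0293 and 0.00867), whereas RRP17 did not (-1.12 ± 0.30, blocked -0.24, adjusted p = 0.304). NUG1, a GTPase gene of 60S export, was higher (0.67 ± 0.14, blocked 0.39, adjusted p = 0.0103).

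The higher factors of nascent RNA that passed with the block, 5 of 5, lie on chromosomes XI and XII, as do 6 of 10 in total RNA. These chromosomes hold 7 of the 63: RRP14 and UTP11 on the left arm of XI, UTP30 on its right arm, RIX7 on the left arm of XII, and NOP56, UTP13 and UTP21 on its right arm. The other genes of these 4 arms were high as well, with blocked medians of 0.80 to 0.96 in nascent RNA (499 of 599 genes higher) and 0.75 to 0.90 in total RNA (520 of 593 higher), whereas the other 28 arms lay between -0.18 and 0.01 and between -0.23 and 0.03. UTP11, of the small subunit processome, was at 1.54 and 1.44 in nascent RNA of spt3_gcn5, against 0.55 and 0.58 in WT 7 and 8 (0.64 ± 0.18, adjusted p = 0.00793, blocked 0.93). RRP14, a factor of both subunits, was at 3.07 and 3.37 in total RNA of spt3_gcn5, against 2.18 and 2.39 in WT 7 and 8 (0.89 ± 0.14, adjusted p = 1.01e-05, blocked 0.93). RIX7 was at 1.19 and 1.27 in nascent RNA of spt3_gcn5, against 0.69 and 0.65 in WT 7 and 8 (0.73 ± 0.14, adjusted p = 0.000258, blocked 0.56). All 3 were above both WT arrays of their set. UTP21, of UTP-B, changed by 0.74 ± 0.14 in nascent and 0.71 ± 0.14 in total RNA (adjusted p = 0.000158 and 0.000124, blocked 0.39 and 0.42), UTP13 of UTP-B by 0.48 ± 0.15 in nascent RNA (adjusted p = 0.013, blocked 0.71) and RIX7 by 1.11 ± 0.18 in total RNA (adjusted p = 1.77e-05, blocked 0.77). UTP30 changed by 0.52 ± 0.16 in nascent RNA (adjusted p = 0.0128), but did not pass when blocked (0.38, adjusted p = 0.121).

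Counted by place and blocked, 0 of the 7 factors on XI and XII were lower and 5 higher in nascent RNA (median 0.59), and 0 lower and 6 higher in total RNA (median 0.47). Of the 56 on other chromosomes 7 were lower and 0 higher in nascent RNA (median -0.06), and 15 lower and 4 higher in total RNA (median -0.12). The 4 were NUG1, NOP6 of the small subunit and the exosome core genes RRP40 and RRP46. The values were then also centred on the medians of XI, of each arm of XII and of all other chromosomes together. With this, 0 of the 7 were higher in either fraction, and 1 was lower in nascent and 3 in total RNA. UTP21 then changed by -0.40 in both (adjusted p = 0.0122 and 0.00803) and the box C/D core gene NOP56 by -0.61 in total RNA (adjusted p = 0.000208). The arms were singled out after their values were seen, and the cause of their shift was not tested.

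**Figure D4:**
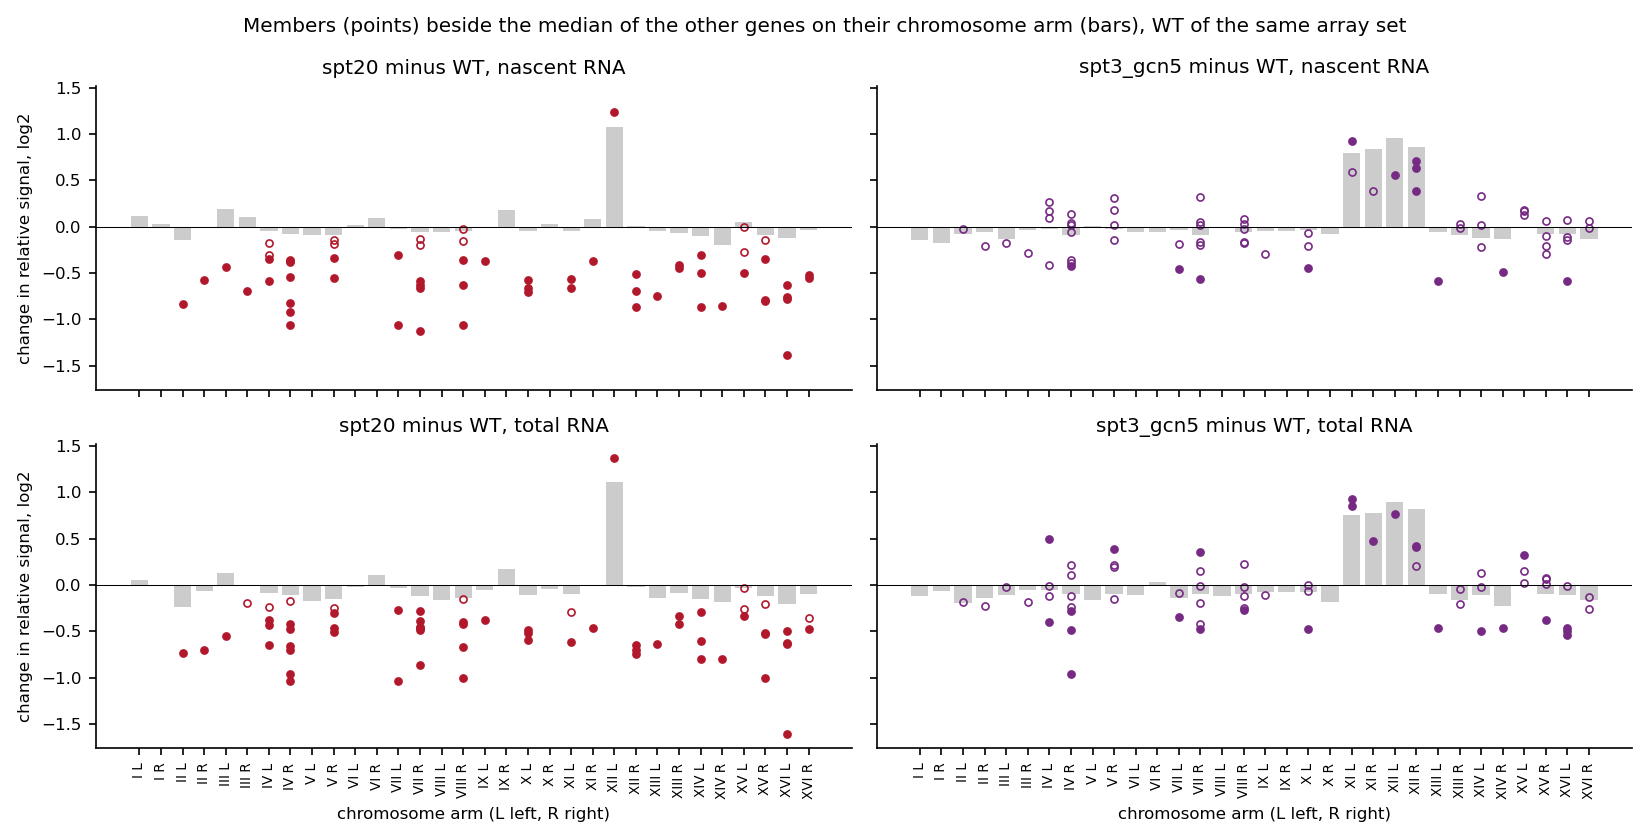
Blocked change in relative log2 signal (strain minus WT, vertical axis) of the 63 factors placed by chromosome arm, in spt20 and spt3_gcn5, nascent and total RNA. Bars are the medians of the other tested genes of each arm, points are factors, and filled points passed an adjusted p of 0.05. RIX7 lies with its arm's raised bar in spt20 (nascent median 1.08), and the 7 factors on XI and XII lie beside raised bars in spt3_gcn5.

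In nascent RNA spt3_gcn5 differed from gcn5 in 31 factors, where 51.5% of all genes differed (18 when blocked, against 31.1%), and in total RNA in 37, where 64.6% did (20 when blocked, against 50.1%). Blocked, 18 were higher and 0 lower in nascent RNA and 20 higher and 0 lower in total RNA, and all 7 factors on XI and XII were among the higher ones in each. The direction was the opposite on the S. pombe scale, with 62 lower and 0 higher in each fraction (medians -1.92 and -1.63), as 97 and 96.9% of all genes were lower. UTP30 was higher in spt3_gcn5 than in gcn5 by 1.61 in nascent RNA (blocked 1.41), and RRP14 by 1.36 in total RNA (blocked 1.43). RRP7, of the UTP-C complex, was lower by 1.44 in nascent and 1.61 in total RNA, but higher by 0.21 and 0.50 when blocked. Its nascent signal was -0.96 and -0.50 in spt3_gcn5, close to -0.53 and -0.59 in WT 7 and 8 and far from the 0.81 to 1.45 of WT 3 to 6. Against spt3, 16 differed in nascent RNA, where 38.2% of all genes differed (13 when blocked, against 35.1%), and 27 in total RNA, where 58.7% did (10 when blocked, against 46.2%). UTP21 was higher there by 0.97 in nascent RNA and RRP14 by 0.95 in total RNA, whereas on the S. pombe scale 55 and 61 factors were lower than in spt3, against 81.1 and 90.8% of all genes. The S. pombe genes passed at 61.2 and 69.1% against gcn5 (blocked 8.2 and 5.9%) and at 20.8 and 59.2% against spt3 (blocked 32.8 and 5.75%).

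The 2 fractions were also compared with each other. In WT, 5 factors had lower relative signal in nascent than in total RNA, where 13.8% of all genes did. They included RRP5 (-0.50, adjusted p = 0.0028), NOP58 (-0.46) and NOP56 (-0.45), the last of these the core proteins of box C/D snoRNPs, and NOP7 and NOP1 were the others. Blocked, 0 of 63 differed either way, against 1.32% of all genes. For WT this setting compares the fractions within the first array set, and within the second set more factors differed than without the block. The unblocked count was 3 without WT replicate 4 and 1 without replicate 7 or 8. WT arrays of the same replicate number deviated together between the fractions (r from 0.56 to 0.852, 6 pairs), and with the replicate number as a block 9 factors were lower, against 27.6% of all genes, and 2 higher, against 5.63%. A factor's change in nascent RNA was then set against its change in total RNA. In spt20, ubp8 and gcn5 0 factors passed, where 0% of all genes passed, and 1, 2 and 0 did so at an unadjusted p under 0.05. In spt3 and spt3_gcn5 0 passed as well, where 0.747 and 0.274% of all genes passed (4 and 3 unadjusted, and 6 in spt3 when blocked, against 31.1%). In spt8 2 passed, where 9.63% of all genes did: NOP1, lower in nascent and higher in total RNA, differed by -1.08 (adjusted p = 0.00473), and UTP6 of UTP-B by 0.48 (adjusted p = 0.045). In ubp8_gcn5 RRP3 passed (-0.48, adjusted p = 0.0448), where 0.373% of all genes did, and with the constants undone 0 passed, as did 0% of all genes. With the array set as a block the counts were 12 in spt8, against 45.3%, and 8 in ubp8_gcn5, against 28.5%. With the replicate number as a block they were 5 in spt3, 10 in spt8, 1 in spt3_gcn5 and 18 in ubp8_gcn5, against 10.8, 33.3, 5.13 and 21.2%. A value that did not pass does not show that a factor changed alike in both fractions.

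**Figure D5:**
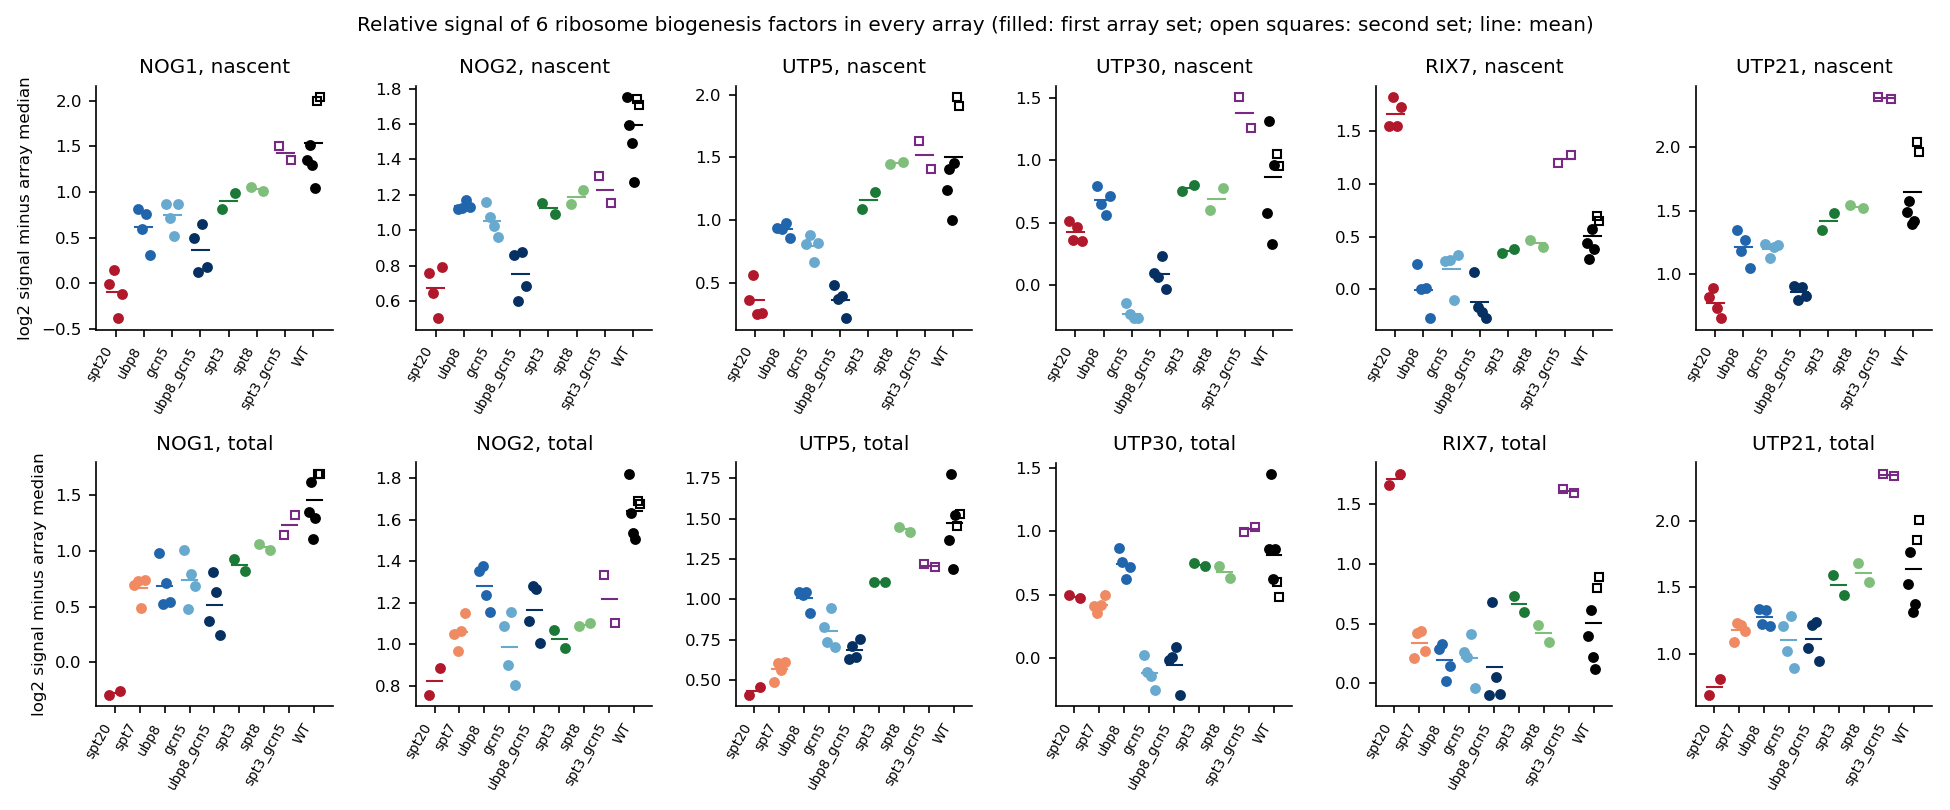
Relative log2 signal (vertical axis) of NOG1, NOG2, UTP5, UTP30, RIX7 and UTP21 in every array, by strain, for nascent and total RNA, with WT at the right. Filled circles are arrays of the first array set, open squares arrays of the second, and lines group means. The ubp8_gcn5 nascent arrays are shown as deposited. NOG1 lies lowest in spt20 (-0.38 to 0.15 in nascent RNA), UTP30 in gcn5 (-0.27 to -0.15) and RIX7 highest in spt20 (1.54 to 1.82).

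Across the 15 comparisons with WT, which share WT arrays, the number of calls per factor ran from 0 to 15, and 12 factors were called in 9. NOG2 was lower in all 15, with and without the block, but not in every other setting. With consecutive replicates averaged it was not called lower in nascent RNA of ubp8. Scaled to S. pombe, it was not called lower in either fraction of spt8. In nascent RNA it changed by -0.92 in spt20, -0.45 in ubp8, -0.54 in gcn5, -0.84 in ubp8_gcn5 (-0.57 undone), -0.47 in spt3, -0.41 in spt8 and -0.36 in spt3_gcn5. Its largest nascent adjusted p was 0.0265, in spt8, where the arrays were at 1.15 and 1.23, against 1.27, 1.65 and 1.75 in WT. In total RNA it changed by -0.82 in spt20, -0.59 in spt7, -0.36 in ubp8, -0.66 in gcn5, -0.48 in ubp8_gcn5, -0.62 in spt3, -0.55 in spt8 and -0.43 in spt3_gcn5. NOP4 was lower in 13 of 15 (14 when blocked), and DBP3 and NOP9 in 12 (14 and 13). At the other end NOP16, of the large subunit, was called in 0 (5 when blocked), and NOP8, RRP36 and RRP46 in 1 each (0, 3 and 8 when blocked). RIX7 was called in 7, of which 3 were lower and 4 higher, and the 4 are both fractions of spt20 and spt3_gcn5. UTP21 was lower in 9 and higher in 2, both in spt3_gcn5.

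The complexes are read against the shares of all genes that were lower, which in nascent and total RNA were 25 and 28.1% in spt20, 12 and 19.7% in gcn5, 7.1 and 14.3% in ubp8, 29.9 and 26.9% in ubp8_gcn5, 8.71 and 12.2% in spt3 and 9.4 and 5.09% in spt8, and in total RNA of spt7 28.6%. Blocked counts are read against blocked shares. These were 26.4 and 37.6% in spt20, 22.4 and 28.2% in gcn5, 5.68 and 17.5% in ubp8 and 44.9 and 36% in ubp8_gcn5. In spt3 they were 23.2 and 18.4%, in spt8 31.1 and 12.6%, and in total RNA of spt7 38.6%. Only those genes of a complex that the symbol rule took are counted. All 6 UTP-A genes among the factors (UTP4, UTP5, UTP8, UTP9, UTP10 and UTP15) fell in spt20 in both fractions (median -0.83 in nascent and -0.69 in total RNA) and in spt7 (-0.54), with and without the block. In gcn5 5 of 6 fell in nascent RNA (3 when blocked) and 6 in total RNA, in ubp8 4 and 5 (5 and 5 when blocked), and in ubp8_gcn5 6 and 5 (nascent median -0.68, undone -0.41). In spt3 0 and 2 of them fell (1 and 3 when blocked, with 1 higher in nascent RNA), and in spt8 0 and 0. The 4 UTP-B genes among the factors fell in spt20 (4 in nascent and 3 in total RNA), spt7 (4, and 3 when blocked), ubp8 (2 and 4, and 3 and 2 when blocked), gcn5 (2 and 4) and ubp8_gcn5 (4 and 3). In spt3_gcn5 3 and 2 of them were higher: UTP18, which did not pass when blocked, UTP21, and in nascent RNA UTP13. UTP13 and UTP21 lie on the raised right arm of chromosome XII. Centred on that arm they changed by -0.30 and -0.04 in nascent RNA, while UTP21 changed by -0.11 in total RNA. Of the 4 genes of the box C/D particle and U3 (NOP1, NOP56, NOP58 and RRP9), 4 fell in spt20 in both fractions (4 and 3 when blocked) and 4 in spt7. In ubp8_gcn5 4 and 3 fell (4 and 3 when blocked), with a nascent median of -0.65, or -0.385 undone. In ubp8 1 fell in each fraction (1 and 0 when blocked) and in gcn5 1 and 3 (2 and 2 when blocked). Of the 7 exosome genes 4 and 3 were lower in spt20, 4 in spt7, 2 and 2 in gcn5 and 1 and 1 in ubp8, and blocked 4 and 5, 6, 3 and 4, and 2 and 3. In ubp8_gcn5 5 and 2 of them were lower as deposited (5 and 5 when blocked). Among the 21 large subunit factors 14 and 13 fell in spt20 (16 and 18 when blocked), 9 in spt7 (14), 14 and 12 in ubp8_gcn5 (19 and 14), 9 and 12 in gcn5 (12 and 13), 9 and 11 in ubp8 (10 and 15), 4 and 8 in spt3 (8 and 11) and 3 and 2 in spt8 (8 and 5). Whether the complexes differ from each other was not tested.

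The rest of the pathway was counted from a list of 99 other ribosome biogenesis factors tested in nascent RNA and 98 in total RNA. In spt20 54 were lower and 4 higher in nascent RNA (median -0.42), where 25% of all genes were lower and 20.5% higher, and 56 and 3 in total RNA (-0.47), where 28.1 and 17.2% were. Blocked, 70 and 73 were lower, and blocked counts of lower genes here stand against the blocked shares given for the complexes. Lower in gcn5 were 46 and 56 (medians -0.37 and -0.35, 65 and 78 when blocked), where 12 and 19.7% of all genes were lower. Lower in ubp8 were 32 and 49 (-0.28 and -0.30, 33 and 69 when blocked), where 7.1 and 14.3% were, and lower in spt7 were 51 (-0.31, 69 when blocked), where 28.6% were. In ubp8_gcn5 71 were lower in nascent RNA (81 when blocked, 41 with the constants undone), where 29.9% of all genes were (17.6% undone), and 52 in total RNA (74 when blocked), where 26.9% were. In spt3 11 and 21 were lower (26 and 30 when blocked), where 8.71 and 12.2% of all genes were, and in spt8 9 and 11 (27 and 21 when blocked), where 9.4 and 5.09% were. Of 8 RNA polymerase I genes 5 were lower in each fraction of spt20 (6 and 8 when blocked) and of gcn5 (7 and 7). Of 126 genes of cytosolic ribosomal proteins, which these factors assemble, 1 was lower in nascent RNA of spt20 (8 when blocked) and 1 in that of gcn5 (19 when blocked). In total RNA 81 of 127 were lower in spt20 (104 when blocked), where 28.1% of all genes were, and 33 in spt7 (56), where 28.6% were. By contrast 62 were higher in total RNA of spt3 (92 when blocked), where 15.3% of all genes were higher. In that of spt8 87 were higher (112 when blocked), where 11.6% of all genes were. The share of all genes that were higher when blocked is not given, so the 92 and 112 have no background beside them. Among regulators of the pathway, the repressor gene TOD6 was lower in 13 of 15 comparisons and did not pass in spt3_gcn5. It fell by 1.05 in nascent RNA of spt20 and 0.81 in that of gcn5. The repressor gene DOT6 was lower in 9, and SCH9, also on the list of regulators, in 6. SFP1 was lower in 5 and higher in 2, and the repressor gene STB3 lower in 1 and higher in 2. The activator gene SFP1 was lower by 0.90 in nascent RNA of spt20 (adjusted p = 0.000195) and higher by 0.95 in spt3_gcn5 (adjusted p = 0.00125), which did not pass when blocked (0.51, adjusted p = 0.0599). The part of any of these genes in the factors' changes was not tested.

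By the RefSeq annotation, 7 factors lie next to a gene of that longer list, and 2 of these pairs point away from a shared upstream region. RRP3 changed by -0.19 in nascent RNA of spt20 (adjusted p = 0.0825) where its partner SSF1, a large subunit factor, changed by -0.95 (adjusted p = 0.000507), and blocked the pair changed by -0.16 and -0.63. In ubp8_gcn5 this pair changed by -0.57 and -0.53 as deposited, and by -0.54 and -0.21 when blocked. NSA2, a large subunit factor, changed by 0.20 in nascent and 0.05 in total RNA of spt20 (adjusted p = 0.563 and 0.919), where its partner LCP5, of the small subunit processome, changed by -0.71 and -0.45 (adjusted p = 0.00118 and 0.000812). The array set decides the sign for NSA2: blocked, it was lower in spt20 by 0.34 and 0.47 (adjusted p = 0.0291 and 0.000532), beside -0.50 and -0.40 for LCP5, and it was lower in 9 of 15 comparisons when blocked, against 2 without the block. Whether partners differ from each other was not tested.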

How the data were processed

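Per the submitters' processing notes, the authors used Expression Console 1.4.1 (Affymetrix); the deposited values are linear intensities of 10928 probe sets on 68 arrays, and which summary algorithm was chosen is not stated. The annotation named 5498 S. cerevisiae and 1746 S. pombe probe sets, with 12 symbols updated through the RefSeq table, and the brightest probe set stood for each of 47 genes with several. WT replicates 1 and 2 (means of other arrays, in total RNA equal to them), the spt7 nascent arrays and spt20 total replicates 1 and 3 were left out. Log2 intensities were centred on each array's median and the lowest 25% of genes were left out. All groups of a fraction (28 arrays of nascent RNA, 30 of total RNA) entered 1 fit in limma 3.58.1 (R 4.3.3; lmFit, eBayes), adjusted by Benjamini-Hochberg over 4087 genes, or 4017 between fractions, at a threshold of 0.05. Alternatives were scaling to S. pombe, quantile normalization, no filter, and centring on tested genes or by chromosome. Others were the array set or the replicate number as a block, WT arrays of the same set, constants undone, averaged replicates, and each array left out. Centring by chromosome used the medians of XI, of each arm of XII and of all other chromosomes together. Genes named are the 4 largest changes each way outside the WT range, those against the majority direction, the most and least called, and the 3 largest between strains. The members and lists were chosen with earlier results of these data known. The fits were tested on simulated data. Plots and tables were made in Python (3.11.15; pandas 2.3.3, numpy 2.4.6, matplotlib 3.10.9, scipy 1.17.1). The spread between arrays sets the precision.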

Additional observations from a re-analysis of the deposited data

Results flagged for a closer look

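Among 80 groups of arrays of the named factors and 11 of the array medians, 1 held an array far from the rest: RRP4 in WT total replicate 4, at a relative log2 signal of 1.331, where the other WT arrays lay between 0.88 and 1.03. Chance gives such a gap in about 1 of 20 groups. The changes of 3 factors differed between the fractions by a test of the difference itself in limma, nascent change minus total change. NOP1 differed by -1.083 in spt8 (adjusted p = 0.00473), with a change of -0.68 in nascent and 0.40 in total RNA. UTP6 differed by 0.484 in spt8 (adjusted p = 0.045), and both rest on 2 arrays a fraction. RRP3 differed by -0.477 in ubp8_gcn5 (adjusted p = 0.0448), which did not pass with the constants undone.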

How the results depend on the processing

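Counts of factors past the threshold, main values of which stand in the report, moved by over 1.5 times as follows, and the cause was not tested except where an alternative has fewer arrays. Where the report gives no share of all genes for a setting and comparison, the count has no background beside it. This holds for all pairs of groups fitted alone. With the array set as a block, the counts were in nascent RNA 19 for spt3, 12 for spt3_gcn5, 18 for spt3_gcn5 against gcn5, 18 for spt8, 7 for ubp8 against gcn5, 27 for ubp8_gcn5 against gcn5 and 31 for ubp8_gcn5 against ubp8, and in total RNA 18 for spt20 against spt7, 26 for spt3, 5 for spt3 against spt8, 20 for spt3_gcn5 against gcn5, 10 for spt3_gcn5 against spt3, 19 for spt8, 9 for ubp8 against gcn5 and 8 for ubp8_gcn5 against gcn5, and between nascent and total RNA 0 for WT, 6 for spt3, 12 for spt8 and 8 for ubp8_gcn5. Under this setting, signs turned for NSA2 0.46 and RRP7 0.21 in spt3_gcn5 against gcn5 (nascent), for RRP17 0.12 and RRP40 0.19 in spt3_gcn5 against spt3 (nascent), for RRP40 0.55 and RRP7 0.50 in spt3_gcn5 against gcn5 (total), for NSA2 0.47, RRP40 0.074 and RRP7 0.40 in spt3_gcn5 against spt3 (total). Against WT arrays of the same set, the counts were in nascent RNA 18 for spt3, 17 for spt3_gcn5 and 17 for spt8, and in total RNA 24 for spt3 and 19 for spt8. Within the first array set, the counts were between nascent and total RNA 0 for WT. Within the second array set, the counts were between nascent and total RNA 31 for WT. The share of all genes in that setting is not given, so this count has no background beside it. With WT replicates 1 and 2 included, the counts were in nascent RNA 10 for spt3. With consecutive replicates averaged, the counts were in nascent RNA 3 for gcn5, 29 for spt20, 0 for spt3, 4 for spt3_gcn5, 10 for spt3_gcn5 against gcn5, 2 for spt3_gcn5 against spt3, 0 for spt8, 0 for ubp8, 1 for ubp8 against gcn5, 29 for ubp8_gcn5, 0 for ubp8_gcn5 against gcn5 and 1 for ubp8_gcn5 against ubp8, and in total RNA 20 for gcn5, 3 for spt20 against spt7, 4 for spt3, 0 for spt3 against spt8, 11 for spt3_gcn5, 16 for spt3_gcn5 against gcn5, 5 for spt3_gcn5 against spt3, 19 for spt7, 0 for spt8, 5 for ubp8, 1 for ubp8 against gcn5, 18 for ubp8_gcn5, 0 for ubp8_gcn5 against gcn5 and 2 for ubp8_gcn5 against ubp8. With each pair of groups fitted alone, the counts were in nascent RNA 9 for gcn5, 0 for spt3, 2 for spt3_gcn5, 0 for spt8 and 0 for ubp8, and in total RNA 17 for gcn5, 13 for spt20, 0 for spt3, 8 for spt3_gcn5, 19 for spt7, 0 for spt8, 4 for ubp8 and 22 for ubp8_gcn5. With the constants undone, the counts were in nascent RNA 28 for ubp8_gcn5, 2 for ubp8_gcn5 against gcn5 and 2 for ubp8_gcn5 against ubp8, and between nascent and total RNA 0 for ubp8_gcn5. With the constants undone and the array set as a block, the counts were in nascent RNA 2 for ubp8_gcn5 against gcn5 and 7 for ubp8_gcn5 against ubp8. Centred by chromosome, signs turned for UTP11 -0.047, UTP13 -0.30, UTP21 -0.038 and UTP30 -0.16 in spt3_gcn5 (nascent), for UTP21 -0.11 in spt3_gcn5 (total). Centred by chromosome with the array set as a block, the counts were in nascent RNA 5 for spt3_gcn5, 13 for spt3_gcn5 against gcn5 and 5 for spt3_gcn5 against spt3, and in total RNA 21 for spt20 against spt7, 16 for spt3_gcn5 and 9 for spt3_gcn5 against spt3. Under this setting, signs turned for NSA2 0.49, RRP17 0.026, RRP7 0.24 and UTP21 -0.13 in spt3_gcn5 against gcn5 (nascent), for RIX7 -0.26, RRP17 0.13, RRP40 0.20 and UTP21 -0.35 in spt3_gcn5 against spt3 (nascent), for RRP17 0.044, RRP40 0.67 and RRP7 0.63 in spt3_gcn5 against gcn5 (total), for NSA2 0.61, RIX7 -0.21, RRP40 0.21, RRP7 0.54 and UTP21 -0.36 in spt3_gcn5 against spt3 (total), for RIX7 -0.28, UTP13 -0.08, UTP21 -0.40 and UTP30 -0.42 in spt3_gcn5 (nascent), for UTP21 -0.40 in spt3_gcn5 (total). Centred on the tested genes, the counts were in nascent RNA 2 for spt8, 5 for ubp8_gcn5 against gcn5 and 5 for ubp8_gcn5 against ubp8. Without the filter, the counts were between nascent and total RNA 1 for spt8 and 0 for ubp8_gcn5. After quantile normalization, the counts were in nascent RNA 2 for spt3, 3 for spt8, 21 for ubp8_gcn5, 4 for ubp8_gcn5 against gcn5 and 4 for ubp8_gcn5 against ubp8, and in total RNA 14 for spt20 against spt7 and 4 for ubp8 against gcn5, and between nascent and total RNA 1 for spt8 and 0 for ubp8_gcn5. Scaled to S. pombe, the counts (lower unless marked) were in nascent RNA 49 for gcn5, 63 for spt3, 63 for spt3 against spt8, 63 for spt3_gcn5, 62 for spt3_gcn5 against gcn5, 55 for spt3_gcn5 against spt3, 0 for spt8, 1 for ubp8, 1 for ubp8 against gcn5 (higher), 62 for ubp8_gcn5 against gcn5 and 62 for ubp8_gcn5 against ubp8, and in total RNA 4 for gcn5, 2 for spt20 against spt7 (1 higher), 5 for spt3, 35 for spt3 against spt8, 63 for spt3_gcn5, 62 for spt3_gcn5 against gcn5, 61 for spt3_gcn5 against spt3, 25 for spt8 (higher), 1 for ubp8, 1 for ubp8 against gcn5 (higher), 29 for ubp8_gcn5 against gcn5 and 48 for ubp8_gcn5 against ubp8. Under this setting, signs turned for RRP9 -0.91, UTP21 -1.01 and UTP30 -0.58 in spt3_gcn5 against gcn5 (nascent), for RIX7 -0.67, UTP11 -0.64 and UTP21 -0.57 in spt3_gcn5 against spt3 (nascent), for NOP9 -0.71 and RRP36 -0.43 in ubp8_gcn5 against gcn5 (nascent), for RRP36 -0.59 in ubp8_gcn5 against ubp8 (nascent), for RIX7 -0.46, RRP14 -0.50 and UTP21 -0.61 in spt3_gcn5 against gcn5 (total), for RIX7 -0.60, RRP14 -0.59 and UTP21 -0.72 in spt3_gcn5 against spt3 (total), for NOP4 -0.007 and RRP8 -0.096 in ubp8_gcn5 against gcn5 (total), for UTP15 -0.20 in ubp8_gcn5 against ubp8 (total), for RIX7 -1.93, UTP11 -2.02, UTP13 -2.18, UTP21 -1.92 and UTP30 -2.14 in spt3_gcn5 (nascent), for NUG1 -0.95, RIX7 -0.51, RRP14 -0.73 and UTP21 -0.91 in spt3_gcn5 (total), for NOP9 0.12 and RRP4 0.061 in spt8 (total). The S. pombe-scaled values of ubp8_gcn5 nascent RNA used the deposited values, with the constants not undone. Leaving out 1 array at a time gave counts of 26 to 36 for gcn5, 40 to 45 for spt20, 1 to 7 for spt3, 10 to 30 for spt3_gcn5, 0 to 7 for spt8, 9 to 31 for ubp8 and 40 to 49 for ubp8_gcn5 in nascent RNA, 33 to 42 for gcn5, 29 to 45 for spt20, 4 to 21 for spt3, 17 to 39 for spt3_gcn5, 32 to 38 for spt7, 2 to 11 for spt8, 22 to 37 for ubp8 and 30 to 45 for ubp8_gcn5 in total RNA, and 1 to 7 for WT nascent against total RNA. 

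Replicate numbers do not pair WT with strain arrays within a fraction, where same-numbered arrays had r from -0.657 to 0.323 (median 0.032). Between the fractions they pair the arrays of WT (r from 0.56 to 0.852, 6 pairs) and of ubp8 (0.353 to 0.571, 4 pairs), but in the other strains r ran from -0.315 to 0.523. With the replicate number as a block, the counts were in nascent RNA 14 for spt3, 33 for spt3_gcn5 against spt3, 7 for ubp8 against gcn5, 29 for ubp8_gcn5 against gcn5 and 31 for ubp8_gcn5 against ubp8, and in total RNA 16 for spt20 against spt7, 37 for spt3, 4 for spt3 against spt8, 54 for spt7, 25 for spt8, 57 for ubp8, 9 for ubp8 against gcn5, 9 for ubp8_gcn5 against gcn5 and 12 for ubp8_gcn5 against ubp8, and between nascent and total RNA 11 for WT, 5 for spt3, 1 for spt3_gcn5, 10 for spt8 and 18 for ubp8_gcn5. Under this setting, signs turned for NOP19 -0.011 in ubp8_gcn5 (total). Within a fraction, its comparisons with WT rest on WT replicates 3 and 4, as no other WT number is shared with a strain. The shares of all genes within a fraction are not given for this setting, so its counts there have no background beside them. Strains spt3, spt8 and spt3_gcn5 and total RNA of spt20 rest on 2 arrays, the array sets were read from S. pombe profiles, and blocked comparisons of spt3_gcn5 rest on 2 arrays a side. Dim genes carry no background value here, so how far signal above background limits the changes of dim genes was not tested.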
